A study of Xenopus tropicalis with 18 samples.

Results

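The transcripts followed here were those of 4 Dlx genes, *dlx2*, *dlx3*, *dlx5* and *dlx6*, chosen by symbol from 28850 genes in whole *Xenopus tropicalis* embryos. Their levels were read by stage in control embryos, and their changes were read after knockdown of the transcription factors Foxi2 or Sox3. The embryos were wild-type *X. tropicalis* from in vitro fertilization. Each morphant had received a translation-blocking morpholino antisense oligonucleotide (MO) against *foxi2* or *sox3*, injected animally at the 1-cell stage by the labels (the methods also allow injection at the 2-cell stage). A translation-blocking MO stops the protein from being made and can leave its mRNA in place, so these libraries do not measure how far either protein was depleted. Controls carry the label control in their titles, while the treatment field names a morpholino for every library, so the labels leave unclear whether controls were injected. The study itself calls the embryos that morphants were set against wild type. At stage 9 (late blastula) there were 3 Foxi2 morphant and 3 Foxi2 control libraries. Foxi2 at stage 10.5 (early gastrula), Sox3 at stage 9 and Sox3 at stage 10.5 had 2 morphant and 2 control libraries each, which makes 18 poly(A)-selected libraries in all.

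Dlx genes encode homeodomain transcription factors related to the fly gene Distal-less. In vertebrates they are mostly arranged as linked pairs, and they act in the epidermis, the edge of the neural plate, the placodes, the neural crest, the limbs and the forebrain. In the frog gastrula, *dlx3* and *dlx5* are known from the ectoderm outside the neural plate, where BMP signalling is high. Dlx3 restrains neural plate genes. In its early gastrula nuclei, however, the study describes *dlx3* as expressed in all its ectodermal cell states. It places *dlx5* in the outer ectoderm, both neural and non-neural. In mammals, DLX3 acts in differentiation of the epidermis, hair and teeth, DLX5 and DLX6 act together in the lower jaw and limb, and DLX2 acts with DLX1 in inhibitory neurons of the forebrain and in the branchial arches.

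In the RefSeq annotation of the genome assembly UCB_Xtro_10.0, *dlx5* lies on chromosome 6 from 33921606 to 33926545 and *dlx6* beside it from 33907210 to 33912166, with a gap of 9439 bp and 0 annotated genes in between. *dlx2* lies on chromosome 9 from 67439526 to 67442902, 20187 bp from *dlx1*. *dlx3* lies on chromosome 10 from 14661908 to 14670732, 18043 bp from *dlx4*. The values are expected counts per gene, which the RSEM program assigned from the reads, so each refers to the whole gene and not to an exon or a promoter.

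The libraries held 12740571 to 27866261 expected counts. Levels are CPM (expected counts scaled to a common library size) on library sizes scaled with edgeR's TMM method, and a level of at most 3 counts in a library, worth 0.101 to 0.232 CPM, was treated as the floor. No transcript lengths were used, so levels are compared between libraries and not between genes. Nothing in the labels says that replicates came from separate clutches, so p-values measure only spread among these libraries and not between clutches. A morphant and a control of the same replicate number were alike: over genes, their deviations from the group means correlated at 0.707 to 0.913 in the 9 pairs. In a group of 2 libraries the deviations mirror each other, so both pairs of such a comparison share the same r. The labels do not say what the numbers mark, and these values cannot establish that the libraries were matched. Morphants and controls were also compared as pairs on that reading, with the replicate number as a block in the fit. P-values of such a fit measure how far the pair differences spread, and not the spread between replicates. In every edgeR fit the spread of a gene was also drawn toward that of other genes, which weighs most where libraries are few. In whole embryos, fewer cells of a type and less RNA per cell cannot be told apart. These libraries did not measure the ectoderm, which *dlx3* and *dlx5* are known from, apart from other tissue. The study also ran RT-qPCR on early gastrula ectoderm of morphants. From it the study reports joint regulation by Foxi2 and Sox3 of ectodermal factors, among which it names *dlx3* and *dlx5*. Genes listed as markers of the outer non-neural ectoderm (*krt70*, *krt7*, *grhl1*, *grhl3*, *tfap2a*, *klf5*) were present in all libraries of controls, with summed levels of 377 to 2385 CPM. The study describes *klf5* and *tfap2a* as expressed in all its ectodermal cell states, and *grhl1* in both ectodermal layers. The sum of the list therefore does not measure that cell type alone.

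In control embryos, *dlx2* was present at both stages, at a similar level in the Foxi2 series. In the Sox3 series its gastrula mean was 0.593 of the blastula mean, and the stages did not overlap. How often groups this small lie apart over all genes was not counted. *dlx5* was present at both stages, with a higher mean at early gastrula in both series, but the stages overlapped in the Foxi2 series. *dlx3* was at or under 3 counts in most late blastula libraries and above it in every early gastrula library, and *dlx6* stayed low throughout. None of the 4 stage changes passed the test over all 9 controls, in a fit that called 0% of all genes in either direction. With the replicate number as a block, *dlx3* was called higher (7.33 on the log2 scale, adjusted p = 0.0115 by edgeR). That fit called 5.86% of all genes higher, and the numbers did not pair across stages in the Foxi2 series.

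The *dlx3* level in Foxi2 controls was 0, 0 and 6.96 CPM at late blastula (replicates 1, 2 and 3) and 18.4 and 1.75 CPM at early gastrula. In Sox3 controls *dlx3* had 0 and 2 counts at late blastula and reached 4.93 and 1.50 CPM at early gastrula. One late blastula library, Foxi2 control replicate 3, thus held more *dlx3* than 3 of the 4 early gastrula controls, and the other 4 late blastula controls were at the floor. Against the floor, the Sox3 gastrula controls had a mean *dlx3* level at least 28.4-fold higher, and the lower of them was at least 13.3-fold higher. Over all 9 controls the fitted *dlx3* change was 3.58 on the log2 scale (standard error 1.80, adjusted p = 0.208 with the quasi-likelihood test of edgeR). In the Sox3 controls alone the rise passed the test (adjusted p = 0.0330 by edgeR), in a fit that called 5.46% of all genes higher at gastrula.

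The *dlx5* level in Foxi2 controls was 0.518, 18.9 and 34.7 CPM at late blastula and 64.7 and 14.3 CPM at early gastrula. In Sox3 controls *dlx5* had 5.18 and 3.51 CPM at late blastula and 16.1 and 8.23 CPM at early gastrula. Replicates of 1 group were far apart: the highest Foxi2 late blastula control had 66.9-fold the *dlx5* level of the lowest, and the Foxi2 gastrula controls differed 4.54-fold. The fitted stage change of *dlx5* was 1.29 on the log2 scale (standard error 0.87, adjusted p = 0.338 by edgeR), and in the Sox3 controls alone it was 1.39 (standard error 0.46, adjusted p = 0.0987).

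The *dlx2* level in Foxi2 controls was 9.89, 6.39 and 6.73 CPM at late blastula and 8.62 and 9.69 CPM at early gastrula. In Sox3 controls *dlx2* had 11.1 and 15.2 CPM at late blastula and 5.96 and 9.64 CPM at early gastrula. The direction thus differed between the 2 series of controls, with fitted changes of 0.26 (standard error 0.36) and -0.85 (standard error 0.37) on the log2 scale. The stage change of *dlx2* over all controls was -0.20 (standard error 0.30, adjusted p = 0.689 by edgeR), with a 95% interval from -0.89 to 0.48.

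The *dlx6* level in Foxi2 controls was 0.575, 1.65 and 1.62 CPM at late blastula and 2.97 and 0.229 CPM at early gastrula, the last being 3 counts. In Sox3 controls *dlx6* had 0.588 and 0.904 CPM at late blastula and 0.986 and 0.423 CPM at early gastrula. The gastrula libraries lay on either side of the blastula libraries in both series. The stage change of *dlx6* was 0.15 on the log2 scale (standard error 0.69, adjusted p = 0.909 by edgeR), with a 95% interval from -1.42 to 1.72. Over all 14785 genes the fit called 0 lower and 0 higher (0% and 0%), with 2540 and 2129 genes at an unadjusted p under 0.05. DESeq2, a second count test, called 977 and 547 and gave *dlx3* no p-value.

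**Figure D1:**
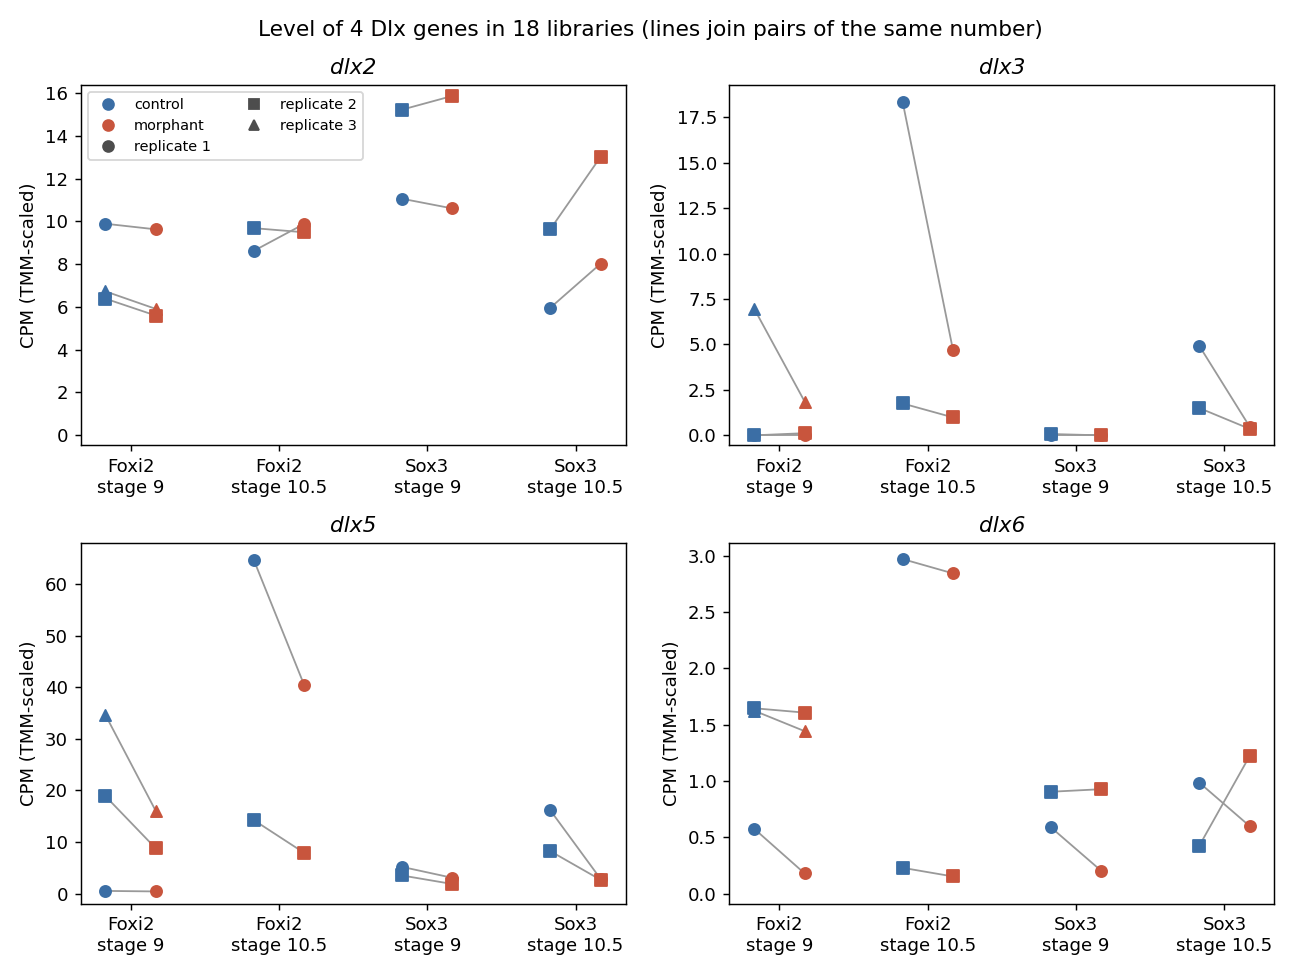
Level of *dlx2*, *dlx3*, *dlx5* and *dlx6* (y axes, CPM on TMM-scaled library sizes) in the 18 libraries, by series and stage (x axes). Blue points are controls, red points are morphants, the marker shape gives the replicate number and grey lines join the morphant and the control of the same number. The *dlx5* line slopes down in all 9 pairs, while the *dlx2* lines are close to level except in Sox3 embryos at stage 10.5.

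The late blastula controls of the Foxi2 series were unlike one another in more than the Dlx genes. In pair 1, the 6 mesoderm and organizer markers (*tbxt*, *wnt8a*, *fgf8*, *chrd.1*, *gsc*, *ventx1.1*) summed to 8.17 CPM in the control and 5.59 CPM in the morphant, with 2 of the 6 at the floor in the morphant. In pair 2 they summed to 270 and 449 CPM, and in pair 3 to 868 and 950 CPM. The 8 endoderm markers (*sox17a*, *sox17b.1*, *hhex*, *darmin*, *gata4*, *gata6*, *mixer*, *frzb*) followed the same order, with 11.7 and 11.4 CPM in pair 1, 183 and 432 CPM in pair 2 and 900 and 1346 CPM in pair 3. The 6 genes listed as outer non-neural ectoderm markers also rose across the numbers. They had 377 and 421 CPM in pair 1, 518 and 594 CPM in pair 2 and 1504 and 1018 CPM in pair 3. Their sum was thus higher in the morphant in pairs 1 and 2 and lower in pair 3. *dlx5*, at 0.518 CPM in control 1 and 34.7 CPM in control 3, and *dlx3*, above the floor only in pair 3, moved with these markers across the numbers. The part of these differences in the Dlx levels was not tested.

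**Figure D2:**
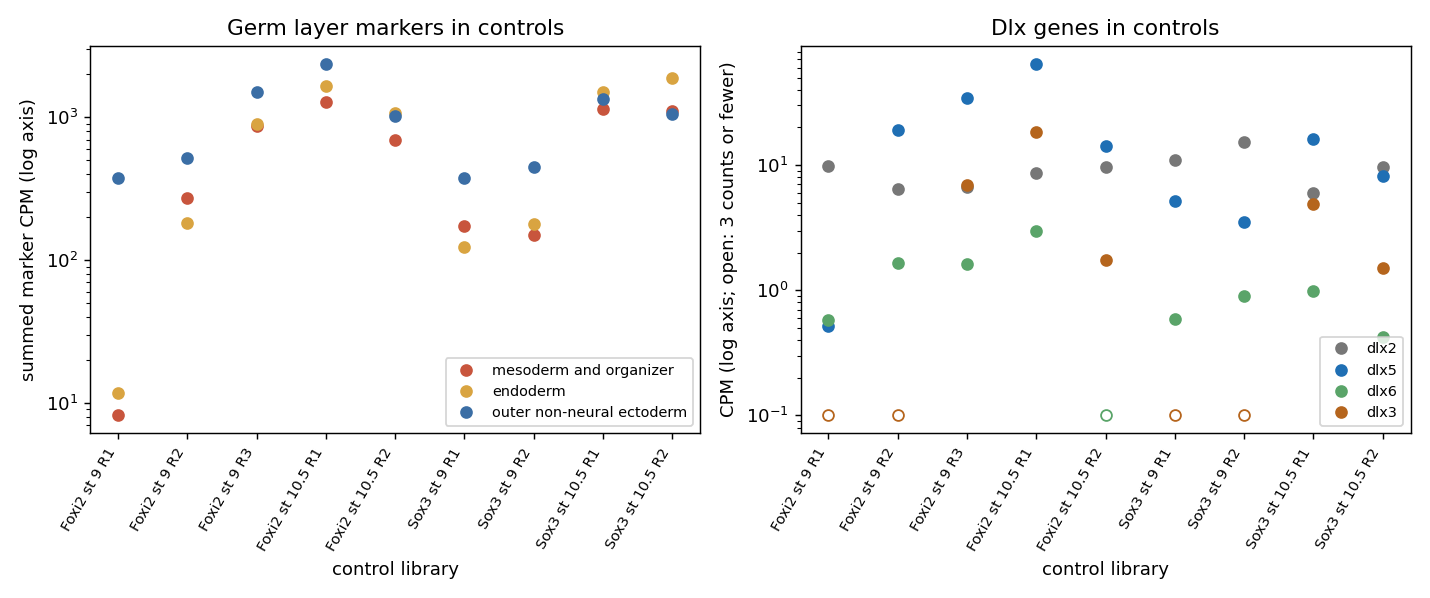
Left, summed level of the genes listed as outer non-neural ectoderm, mesoderm and organizer, and endoderm markers (y axis, CPM, log axis) in each of the 9 control libraries (x axis, st for stage, R for replicate). Right, level of the 4 Dlx genes in the same libraries (CPM, log axis), with open points on the lowest line for libraries with 3 counts or fewer. Foxi2 control replicate 1 at stage 9 has the lowest mesoderm, endoderm and *dlx5* values (8.17, 11.7 and 0.518 CPM).

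In Foxi2 morphants at late blastula, *dlx5* was lower than in the paired control in all 3 pairs, and in pairs 2 and 3, where it was well expressed, it stood at 46.3% and 46.2% of the control. *dlx3* could be read only in pair 3, where the morphant had 26.6% of the control. *dlx2* and *dlx6* differed from their controls by less than the spread between replicates. Compared as pairs, *dlx5* fell and no other member passed the test.

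The *dlx5* level was 0.416, 8.75 and 16.0 CPM in Foxi2 morphants 1, 2 and 3 at late blastula, against 0.518, 18.9 and 34.7 CPM in the controls of the same numbers. Both groups ran from very low in number 1 to high in number 3, so the groups overlapped although each morphant was below its own control. Number 1 held 7 counts in the morphant and 9 in the control, and its ratio of 80.4% had a 95% counting interval from 25.4% to 243% (exact binomial, counting error only). With the replicate block the *dlx5* change was -1.08 on the log2 scale (standard error 0.14, adjusted p = 0.0132 by edgeR), and without pair 1, a choice made after seeing the data, it was -1.12 (adjusted p = 0.00697). Without the block it was -1.11 with a standard error of 1.56 (adjusted p = 1.00), and it moved to -0.20 without control 3 and to -1.99 without morphant 3.

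In the unblocked edgeR fit 0 of the 3 members tested were called, and 0% of 12802 genes were called lower or higher, with 86 and 59 genes at an unadjusted p under 0.05 and 16 and 4 called by DESeq2. With the block 1 of the 3 was called lower, against 0.445% of all genes, and none higher, against 0.273%. By the size of its fitted change without the block, *dlx5* was the 87th lowest of 12802 genes.

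*dlx3* had 27 counts in Foxi2 morphant 3 and 90 in control 3 at late blastula, or 1.85 and 6.96 CPM. That difference exceeded counting error, with a 95% interval of 16.7% to 41.4% of the control. In pairs 1 and 2 the *dlx3* counts were 0 and 2 in the morphants and 0 and 0 in the controls, so no change could be read there. *dlx3* did not pass the filter on low counts and was not tested.

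*dlx2* stood at 97.3%, 87.6% and 87.8% of the control in the 3 pairs, at 9.63, 5.60 and 5.91 CPM in the morphants. Each counting interval held 100%, and the blocked change of *dlx2* was -0.14 on the log2 scale (95% interval -0.46 to 0.18, adjusted p = 0.713 by edgeR). *dlx6* had 3, 27 and 21 counts in the morphants and 10, 25 and 21 in the controls. Its level stood at 31.0%, 97.6% and 88.8% of the control, again with every counting interval holding 100%, and the blocked change was -0.35 (95% interval -1.22 to 0.52, adjusted p = 0.736). The neighbour of *dlx5* thus had an interval too wide to say whether it followed *dlx5*.

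In Foxi2 morphants at early gastrula, *dlx3* and *dlx5* were lower than in the paired control in both pairs, *dlx3* at 25.6% and 56.3% of the control and *dlx5* at 62.5% and 55.4%. *dlx2* and *dlx6* were close to their controls. Compared as pairs, *dlx3* fell. *dlx5* passed the adjusted p but not the 2-fold threshold.

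The *dlx3* level was 4.69 and 0.987 CPM in the Foxi2 gastrula morphants and 18.4 and 1.75 CPM in their controls. Pair 1 had 66 against 377 counts and pair 2 only 13 against 23, and the counting interval of pair 2, from 26.2% to 116%, held 100%. The morphant of pair 1 thus lay above the control of pair 2, so the groups overlapped. With the block the *dlx3* change was -1.68 on the log2 scale (standard error 0.28, adjusted p = 0.0182 by edgeR), and without the block -1.81 (standard error 1.38, adjusted p = 1.00).

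The *dlx5* level was 40.5 and 7.90 CPM in the morphants, against 64.7 and 14.3 CPM in the controls. Here too morphant 1 lay above control 2, and each morphant lay below its own control. The intervals of counting error were 56.5% to 69.0% in pair 1 and 43.1% to 70.7% in pair 2. With the block the *dlx5* change was -0.73 on the log2 scale (standard error 0.11, adjusted p = 0.0125 by edgeR), and without it -0.70 (standard error 1.097). Without the block these values depended on single libraries: leaving out control replicate 1 turned *dlx3* to 0.71 and *dlx5* to 0.78, and leaving out morphant replicate 2 turned *dlx5* to 0.047.

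In the morphants *dlx2* had 9.88 and 9.49 CPM, against 8.62 and 9.69 CPM in the controls, which was 115% and 98.0% of the control. *dlx6* had 40 and 2 counts in the morphants and 61 and 3 in the controls, so only pair 1 could be read, at 95.7% of the control. Neither gene differed beyond counting error in any pair that could be read. The blocked change was 0.09 (95% interval -0.29 to 0.48) for *dlx2* and -0.12 (95% interval -1.13 to 0.90) for *dlx6*, with adjusted p of 0.830 and 0.932 by edgeR.

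Without the block 0 of 4 members were called at early gastrula in the Foxi2 series, and 0% of 13215 genes were called lower or higher, with 133 and 144 genes at an unadjusted p under 0.05 and 12 and 17 called by DESeq2. With the block 1 of 4 was called lower, against 0.613% of all genes, and none higher, against 0.855%. *dlx3* had the 36th lowest fitted change of 13215 genes without the block and *dlx5* the 383rd.

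**Figure D3:**
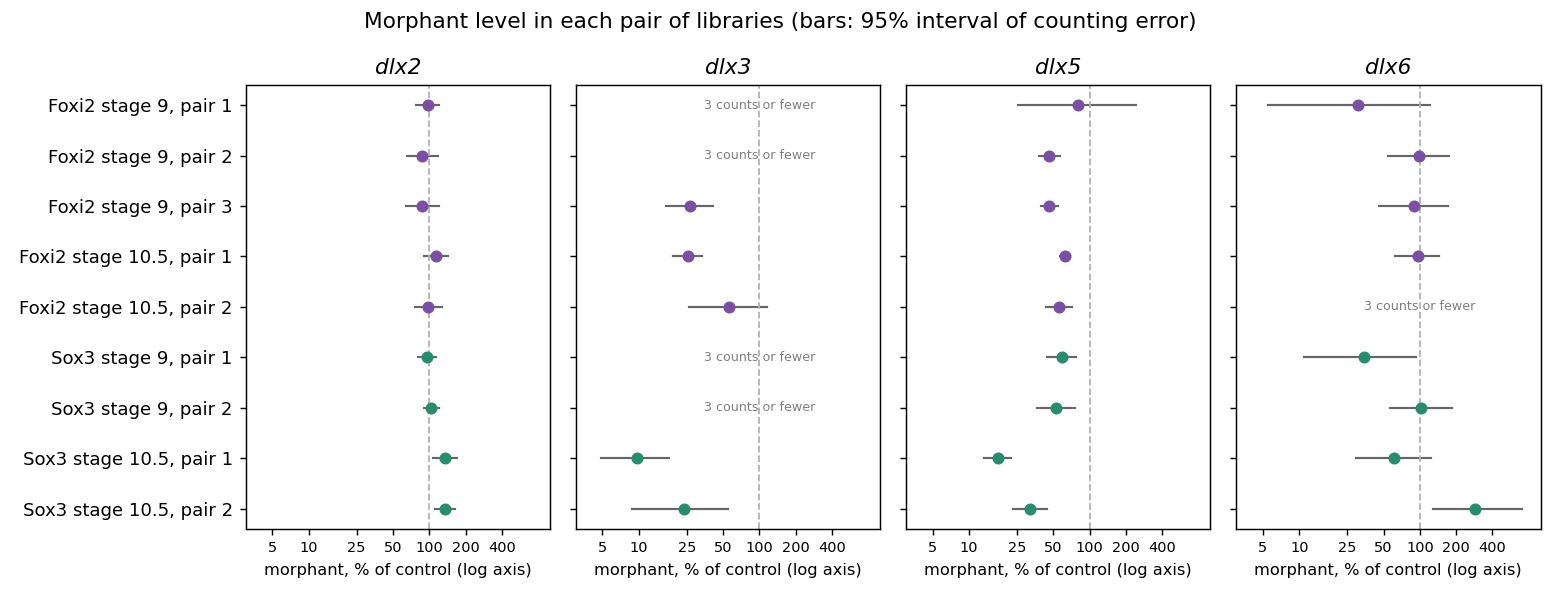
Level of each Dlx gene in the morphant as a percentage of the control of the same number (x axes, log axis) in the 9 pairs (y axis). Purple points are Foxi2 pairs, green points are Sox3 pairs, bars are 95% intervals of counting error (exact binomial) and the dashed line marks 100%. Every *dlx5* point lies left of the line, from 17.3% to 80.4%, and pairs in which neither library exceeded 3 counts are marked and have no point.

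In Sox3 morphants at late blastula, *dlx5* stood at 59.0% and 52.8% of the paired control. *dlx3* was at the floor in all 4 libraries, and *dlx2* stood at 95.9% and 104% of the control. No member passed the test in any of the fits.

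The *dlx5* level was 3.05 and 1.85 CPM in the Sox3 late blastula morphants and 5.18 and 3.51 CPM in their controls. The 2 groups did not overlap, and both counting intervals, 44.7% to 77.6% and 36.8% to 75.1%, lay below 100%. Groups of 2 libraries can lie apart without a change, and the share of all genes whose groups did so was not counted. The *dlx5* change was -0.81 on the log2 scale (standard error 0.43, adjusted p = 1.00 by edgeR) and with the block -0.83 (standard error 0.22, adjusted p = 0.0963).

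The *dlx2* levels were 10.6 and 15.9 CPM in the morphants, against 11.1 and 15.2 CPM in the controls. Its blocked change was 0.0097 on the log2 scale, with a 95% interval from -0.27 to 0.29 (adjusted p = 0.997 by edgeR). *dlx6* had 6 and 25 counts in the morphants and 15 and 25 in the controls, which was 34.2% and 103% of the control. The pairs disagreed, and only that of number 1 excluded 100% by counting error (10.9% to 93.4%), for a blocked change of -0.52 (95% interval -1.57 to 0.54, adjusted p = 0.824).

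At late blastula in the Sox3 series 0 of the 3 members tested were called in the unblocked and in the blocked edgeR fit, and DESeq2 called none of them among 61 genes called lower and 8 called higher. The unblocked fit called 0% of 13909 genes lower or higher, with 270 and 122 genes at an unadjusted p under 0.05, and the blocked fit called 1.01% lower and 0.309% higher. Of the members, 1 (*dlx5*) had an unadjusted p under 0.05 with the block and none without it. The summed mesoderm markers stood at 89.6 to 101 CPM in these morphants and 149 to 174 CPM in the controls, a difference whose part in the *dlx5* values was not tested.

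In Sox3 morphants at early gastrula, *dlx3* and *dlx5* had their lowest shares of the control. *dlx3* stood at 9.72% and 23.7% of the paired control and *dlx5* at 17.3% and 32.2%, and both genes fell when compared as pairs. *dlx2* was higher in both pairs, at 135% of the control in each, without passing the test. *dlx6* was lower in pair 1 and higher in pair 2.

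The *dlx5* level was 2.80 and 2.65 CPM in the Sox3 gastrula morphants and 16.1 and 8.23 CPM in their controls. The groups did not overlap, again without a share of all genes to set beside it. The morphants differed from each other far less than the controls did. Both morphants were also below the 3.51 and 5.18 CPM of the Sox3 controls at late blastula. The *dlx5* change was -2.13 on the log2 scale without the block (standard error 0.43, unadjusted p = 0.00452, adjusted p = 0.418 by edgeR) and -2.07 with it (standard error 0.27, adjusted p = 0.000423). DESeq2 without a block also called it, at -2.15 (adjusted p = 0.00275), in a fit that called 0.863% of all genes lower.

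The *dlx3* level was 0.479 and 0.356 CPM in the morphants, or 12 and 7 counts, and 4.93 and 1.50 CPM in the controls, or 110 and 32 counts. The groups did not overlap, with the same limit as for *dlx5*, and the counting intervals were 4.87% to 17.7% and 8.82% to 54.6% of the control. The *dlx3* change was -2.89 without the block (standard error 0.76, unadjusted p = 0.0125, adjusted p = 0.579 by edgeR) and -2.80 with it (standard error 0.48, adjusted p = 0.00327). DESeq2 without a block gave -2.93 (adjusted p = 0.104) and did not call it.

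The *dlx2* levels were 8.03 and 13.0 CPM in the morphants, against 5.96 and 9.64 CPM in the controls. The groups overlapped, while both counting intervals, 108% to 169% and 112% to 163%, lay above 100%. The blocked change of *dlx2* was 0.46 on the log2 scale (standard error 0.21, unadjusted p = 0.0487, adjusted p = 0.303 by edgeR). *dlx6* had 15 and 24 counts in the morphants and 22 and 9 in the controls, which was 60.8% and 289% of the control. The blocked change of *dlx6* was 0.37 (95% interval -0.90 to 1.64, adjusted p = 0.818), so its direction could not be read.

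Without the block 0 of 4 members were called in the Sox3 gastrulae, and 0% of 14427 genes were called lower or higher, with 370 and 425 genes at an unadjusted p under 0.05. DESeq2 called 122 genes lower and 66 higher. With the block 2 of 4 were called lower, against 1.48% of all genes, and none higher, against 1.87%. *dlx3* had the 51st lowest fitted change of 14427 genes without the block and *dlx5* the 86th.

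Markers of other cell types and of the ectoderm itself also differed between the gastrula groups. The 6 genes listed as outer non-neural ectoderm markers, with the limit given above, summed to 1547 and 769 CPM in Foxi2 morphants. The controls of the same numbers had 2385 and 1017 CPM. In Sox3 morphants the 6 genes summed to 946 and 894 CPM against 1342 and 1064 CPM. The sum was thus lower in all 4 pairs, although without the block 4 of the 6 had positive fitted values in the Sox3 series (median 0.11 on the log2 scale) and 1 of the 6 in the Foxi2 series (median -0.75). The 2 inner non-neural ectoderm markers (*tp63*, *pdgfa*) summed to 32.7 and 10.6 CPM in Foxi2 morphants against 59.0 and 21.97 CPM, and to 6.91 and 10.8 CPM in Sox3 morphants against 16.6 and 12.2 CPM, again lower in all 4 pairs. The 3 genes listed as neural ectoderm markers (*sox2*, *sox3*, *nectin2*) summed higher in all 4 pairs. They stood at 1595 to 1644 CPM in Foxi2 morphants against 1220 to 1306 CPM, and at 1632 to 2140 CPM in Sox3 morphants against 908 to 1156 CPM. The study reports *nectin2* as enriched in the outer ectodermal layer. It describes *sox3* as present throughout the ectoderm until gastrulation and confined to the future neural plate by mid-gastrula. The sum therefore does not measure neural ectoderm apart from other ectoderm. The target of the Sox3 MO is in that list, and with the block *sox3* was the gene called there, at 1.42 on the log2 scale in Sox3 gastrulae. In the same fit *sox2* was lower, at -0.75 (adjusted p = 0.0151 by edgeR), and *nectin2* had 0.0077. All 8 endoderm markers had positive fitted values in both gastrula knockdowns, with medians of 0.29 (Foxi2) and 0.41 (Sox3) on the log2 scale and none called. With the block some passed the adjusted p and missed only the 2-fold threshold. In Foxi2 gastrulae these were *mixer* at 0.53, *gata4* at 0.78 and *hhex* at 0.61 (adjusted p = 0.00537, 0.00682 and 0.00882 by edgeR). In Sox3 gastrulae *hhex* had 0.76 (adjusted p = 0.0178). The values of *gata4* and *hhex* were picked after they were seen. The summed levels of the 8 markers ran from 1078 to 1672 CPM in Foxi2 controls and 1639 to 2045 CPM in Foxi2 morphants. They ran from 1497 to 1901 CPM in Sox3 controls and 1720 to 2588 CPM in Sox3 morphants, and none of the 8 was at the floor. The part of these differences in the Dlx changes was not tested.

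**Figure D4:**
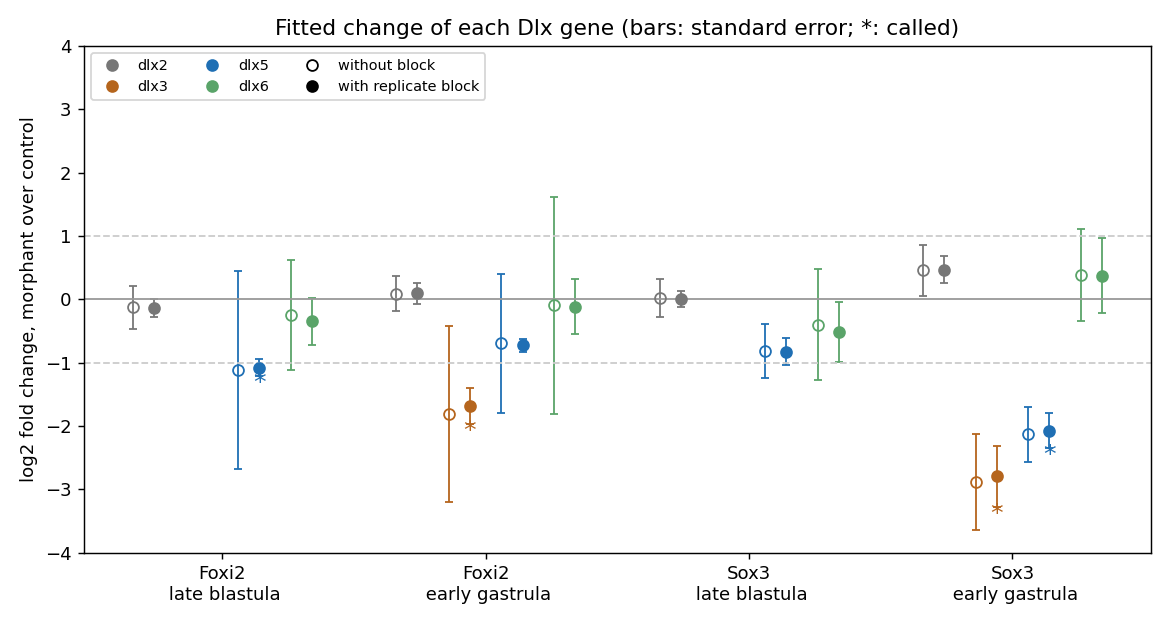
Fitted log2 fold change of each Dlx gene, morphant over control (y axis), in the 4 knockdown comparisons (x axis). Open points are fits without a block, filled points are fits with the replicate block, bars are standard errors, dashed lines mark a 2-fold change and asterisks mark called genes. The *dlx5* value for Foxi2 at late blastula is -1.11 without the block and -1.08 with it, and its standard error is 1.56 and 0.14.

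Over both knockdowns and both stages, *dlx5* was lower in 9 of 9 pairs and *dlx3* in 5 of the 5 pairs in which it exceeded the floor. *dlx6* was lower in 6 of the 8 pairs in which it exceeded the floor, and *dlx2* in 5 of 9. The counting interval, which leaves out the spread between replicates, excluded an equal level in all *dlx5* pairs but 1 and in all readable *dlx3* pairs but 1. It held an equal level in 6 *dlx6* pairs and 7 *dlx2* pairs. *dlx5* stood at a lower share of the control than its neighbour *dlx6* in 6 of the 8 pairs in which *dlx6* exceeded the floor. None of these tallies was made over all genes.

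Ordered by the group mean, *dlx5* ran from 39.5 ± 35.7 CPM (SD, n = 2) in Foxi2 gastrula controls through 24.2 ± 23.0 CPM in their morphants (n = 2), 18.02 ± 17.1 CPM in Foxi2 blastula controls (n = 3), 12.2 ± 5.59 CPM in Sox3 gastrula controls (n = 2) and 8.39 ± 7.80 CPM in Foxi2 blastula morphants (n = 3), to 4.34 ± 1.18 CPM in Sox3 blastula controls (n = 2). The lowest were the Sox3 morphants, at 2.72 ± 0.106 CPM at gastrula and 2.45 ± 0.849 CPM at blastula (n = 2 each). Neighbours in this order overlapped, except that Sox3 blastula controls lay above Sox3 gastrula morphants. For *dlx3* the order ran from 10.1 ± 11.7 CPM in Foxi2 gastrula controls through 3.22 ± 2.42 CPM in Sox3 gastrula controls and 2.84 ± 2.62 CPM in Foxi2 gastrula morphants (n = 2 each) to the Sox3 blastula groups at the floor. Between them lay Foxi2 blastula controls and morphants, at 2.32 ± 4.02 and 0.658 ± 1.04 CPM (n = 3 each), and Sox3 gastrula morphants, at 0.418 ± 0.0870 CPM (n = 2). Only Sox3 gastrula morphants and Sox3 blastula controls did not overlap among these neighbours. How often groups this small lie apart over all genes was not counted. Group means ran from 7.04 to 13.2 CPM for *dlx2* and from 0.564 to 1.60 CPM for *dlx6*, and every neighbouring pair of groups overlapped.

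Whether the 2 knockdowns differed was tested as an interaction. At early gastrula the Foxi2 effect on *dlx5* was less negative than the Sox3 effect by 1.44 on the log2 scale (standard error 1.28, adjusted p = 1.00 by edgeR), or by 1.35 with the block (standard error 0.30, adjusted p = 0.0879). For *dlx3* the difference was 1.08 (standard error 1.67, adjusted p = 1.00), or 1.24 with the block (standard error 0.57, adjusted p = 0.383). At late blastula the *dlx5* difference was -0.25 with the block, with a 95% interval from -0.77 to 0.28 (adjusted p = 0.767). No member was called in these tests, with or without the block. The unblocked fits called 0% of genes lower or higher at both stages, and the blocked fits called 0.449% lower and 0.77% higher at early gastrula and 0.265% and 0.873% at late blastula. In the unblocked fits 67 and 66 genes at late blastula and 175 and 203 at early gastrula had an unadjusted p under 0.05, and DESeq2 called 7 and 5, and 11 and 26.

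Between stages, the Sox3 effect on *dlx5* was more negative at early gastrula than at late blastula by 1.31 on the log2 scale, a value of -1.31 with a standard error of 0.63 (adjusted p = 1.00 by edgeR). With pairs blocked within each stage it was -1.24 (95% interval -2.11 to -0.38, unadjusted p = 0.0119, adjusted p = 0.563). For Foxi2 the difference was 0.41 without the block (standard error 2.28) and 0.35 with pairs blocked within each stage (95% interval -0.04 to 0.74, adjusted p = 1). The stage difference of *dlx3* was not read, because at late blastula only pair 3 of the Foxi2 series and no library of the Sox3 series exceeded the floor. No member was called, where the unblocked fits called 0% of genes in each direction (for Foxi2 2 and 5 genes, and for Sox3 90 and 194, had an unadjusted p under 0.05, and DESeq2 called 0 and 0, and 17 and 19).

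The other Dlx rows of the tables were *dlx1* and *dlx4*, the linked neighbours of *dlx2* and *dlx3*. *dlx4* had at most 5 counts in any library and did not pass the filter on low counts of the edgeR fits. *dlx1* had 31 to 107 counts in every library, and its fitted change was -0.16 (Foxi2, late blastula), -0.34 (Foxi2, early gastrula), -0.02 (Sox3, late blastula) and 0.27 (Sox3, early gastrula) on the log2 scale, none of them called. The calls with the block in the knockdown comparisons thus concerned *dlx3* and *dlx5*. In Foxi2 blastulae 1 of the 4 Dlx rows tested was called lower, and in Foxi2 gastrulae 1 of 5 (all genes: 0.445% and 0.613%). In Sox3 blastulae 0 of 4 were called lower, and in Sox3 gastrulae 2 of 5 (all genes: 1.01% and 1.48%).

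Other regulators of the non-neural ectoderm were read from a list of 14 genes. With the block, in Foxi2 morphants 1 of 11 tested was called lower at late blastula (*foxi1*, a forkhead factor of ionocytes, at -1.84) and 2 of 14 at early gastrula (*tp63*, a regulator of basal epidermal cells, at -1.55, and *klf5* at -1.28). The same Foxi2 fits called 0.445% and 0.613% of all genes lower. In Sox3 morphants 2 of 10 were called lower at late blastula (*tfap2a* at -1.21 and *foxi1* at -2.28), against 1.01% of all genes. At early gastrula 1.48% of all genes were called lower and 1.87% higher. Of the list, 2 of 14 were called lower there (*tfap2a* at -1.76 and *tp63* at -3.51) and 2 higher (*tfap2b* at 3.81 and *tfap2e* at 1.50). Apart from *tfap2a*, these were named after their values were seen. Over the control gastrulae of both series *tfap2b* had a mean of only 0.511 CPM, so its change rests on low levels. Of the 4 most abundant in control gastrulae, *tfap2a*, an AP-2 factor of epidermis and neural crest, had -0.98 in Foxi2 gastrulae with the block (adjusted p = 0.00239 by edgeR), just under 2-fold. *tfap2c*, *gata2* and *grhl3* had -0.13, 0.07 and 0.34 in Sox3 gastrulae, and none of the 3 was called in any knockdown. The list's median without the block was -0.25 and -0.35 in Foxi2 morphants at the 2 stages and -0.06 and 0.12 in Sox3 morphants, where the medians of all genes tested lay between -0.0018 and 0.012.

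BMP signalling genes and their direct targets made up a list of 24, of which 21 were in the tables. With the block 0 of 18 and 0 of 20 tested were called in Foxi2 morphants and 0 of 18 in Sox3 morphants at late blastula. These fits called 0.445%, 0.613% and 1.01% of all genes lower and 0.273%, 0.855% and 0.309% higher. In each of them some listed genes passed the adjusted p and missed only the 2-fold threshold. In Sox3 blastulae *bmp7.2* had -0.62 (adjusted p = 0.00312 by edgeR). *bmp4*, named after its value was seen, had -0.99 there (adjusted p = 0.000527). Without the block 13 of the 18 were lower there and 5 higher. In Sox3 gastrulae 2 of 19 were called lower, against 1.48% of all genes. These were the ligand gene *bmp7.2* at -1.53 and *szl*, which encodes a secreted inhibitor of chordin-cleaving proteases, at -1.97. The ligand gene *bmp7.1* was called higher, at 1.31, against 1.87% of all genes (*szl* and *bmp7.1* named after their values were seen). The signal transducer *smad1* and the BMP targets *id3* and *ventx2.2* had 0.24, 0.04 and -0.07 in Sox3 gastrulae. Other listed genes were lower there and missed only the 2-fold threshold, and they were named after their values were seen. They were *bambi* at -0.69, *ventx1.2* at -0.77 and *ventx3.2* at -0.91 (adjusted p = 0.0269, 0.0485 and 0.0244 by edgeR). Without the block 13 of the 19 were lower and 6 higher. In Foxi2 gastrulae *id3* and *ventx2.2* had 0.74 and 0.75 (adjusted p = 0.00123 and 0.0222 by edgeR), under the 2-fold threshold. Listed genes passed the adjusted p there in both directions. The others higher were *ventx2.1* at 0.86 and *acvr1* at 0.45. Those lower were *bmp4* at -0.59, *bambi* at -0.53, *ventx1.1* at -0.74, *szl* at -0.73 and *smad1* at -0.26. Apart from *smad1*, these others were named after their values were seen. Without the block 12 of the 20 were lower and 8 higher. The list's median without the block was -0.13, -0.09, -0.20 and -0.14 in the 4 knockdown comparisons in the order given above.

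Of 15 neural plate and plate border genes, 14 were in the tables and were tested. With the block 7 were called lower in Sox3 blastulae, against 1.01% of all genes, and 6 in Sox3 gastrulae, against 1.48%. In Foxi2 morphants none was called lower at either stage, against 0.445% and 0.613% of all genes. There 1 was called higher at each stage, against 0.273% and 0.855%. These were *otx2* and then *neurog3*, both named after their values were seen. *sox2* had -0.73 and -0.75 in Sox3 morphants (adjusted p = 0.00613 and 0.0151 by edgeR), under the 2-fold threshold. *zic2* and *gmnn* were not called in any knockdown. Without the block 0 genes of any of these lists were called.

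The genes most like each Dlx gene were sought among 15317 genes by Pearson's r of log2 CPM over the 18 libraries, which share replicate numbers and depth, so r is given as a description. For *dlx3* they included *aldh1l1*, *rtbdn*, *mmp14* and LOC100485635 (r from 0.958 to 0.966). For *dlx5* they were LOC105947954, *gas1*, *gpr135*, *lims1* and *xmc* (r from 0.930 to 0.936). Those of *dlx2* were *scaf8*, *rb1cc1*, *cdk8*, LOC100170623 and *ufl1* (r from 0.829 to 0.902), and those of *dlx6* were *chst3*, *zp3.2*, *aif1l*, *csmd2* and *hacd4* (r from 0.857 to 0.888). Among the members themselves, *dlx3* and *dlx5* had r = 0.78, and *dlx5* and *dlx6* 0.59. *dlx2* had -0.38, -0.48 and -0.29 with *dlx3*, *dlx5* and *dlx6*. In all late blastula libraries but those of Foxi2 pair 3, *dlx3* was at the floor, and its r values include them.

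With 15317 genes and only 9 differences between morphant and paired control, the highest r is large even for unrelated genes, so the names are a description only. Over these differences *dlx5* was most like *dtwd2*, *fahd1*, *tdrp*, *cdc42* and *thap1* (r from 0.955 to 0.969). *dlx2* was most like LOC105946930, *rgl2*, *nr4a2*, *lamb1* and *alad* (r from 0.917 to 0.956). *dlx3*, at the floor in 4 of the 9 pairs, was most like *abo.3*, *jagn1*, *tigar*, *hspa4* and *rcor2* (r from 0.941 to 0.971). *dlx6* was most like LOC116411637, LOC101732248, *twist1*, *cox10* and *st8sia5* (r from 0.891 to 0.940). None of these genes was also among the 5 most like the same Dlx gene over the 18 libraries. *dlx5* and *dlx6*, which lie next to each other, had r = -0.34 over the pair differences. *dlx3* and *dlx5* had 0.64, with the 4 pairs at the floor for *dlx3* included.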

How the data were processed

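The authors aligned poly(A) RNA-seq reads to the V10.0 assembly of *X. tropicalis* and deposited RSEM expected counts, 1 column per library. Their methods name STAR, while the submitters' processing notes list RSEM 1.2.12 and Bowtie2 2.2.7. Totals differ between libraries, so the deposited expected counts were read as unscaled. Reads matching several genes are divided among them by RSEM, so values of near-identical genes are uncertain.

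Expected counts were rounded, TMM-scaled, filtered with filterByExpr and fitted with edgeR 4.0.16 (R 4.3.3, quasi-likelihood test) in each comparison. A gene was called at a Benjamini-Hochberg adjusted p under 0.05 over all genes tested and a change of at least 2-fold. Log2 CPM used a prior count of 2. The stage fit had the series as a covariate. Alternatives were the replicate number as a block, DESeq2 1.42.0, no TMM, every gene with at least 1 count, all 18 libraries in a single fit, and each library left out. Blocking within stage and leaving out pair 1 were added after seeing the data. The steps were run on simulated data in which libraries of the same series and number shared a deviation by construction. That run cannot show whether the real libraries were paired.

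Named were the 4 members, *dlx1* and *dlx4*, the 5 genes most like each member, and up to 4 genes a list, those most abundant in control gastrulae. Some genes that this rule names are not reported here. The members and lists were chosen with earlier results of these data known. Of the table names, 26531 of 28850 were found as RefSeq symbols. No sequences are shown. ChIP-seq and single-nucleus data of the study were not used here.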

Additional observations from a re-analysis of the deposited data

How the results depend on the processing

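The replicate block changed the calls of the Dlx genes most. With it 1 member was called for Foxi2 at late blastula (*dlx5*, -1.08, adjusted p = 0.0132, and -1.12 without pair 1), 1 for Foxi2 at early gastrula (*dlx3*, -1.68) and 2 for Sox3 at early gastrula (*dlx3*, -2.80, and *dlx5*, -2.07), where none was called without it. DESeq2 called 1 member for Sox3 at early gastrula (*dlx5*, -2.15). Over all genes the block gave 92, 194, 183 and 484 calls in the 4 knockdown comparisons and DESeq2 20, 29, 69 and 188, against 0 in the unblocked edgeR fits. Keeping every gene with at least 1 count gave 1 call for Sox3 blastulae and 32 for Sox3 gastrulae. The single fit of all 18 libraries gave 7 calls for Foxi2 at late blastula and 1 and 9 for Sox3. For the difference between knockdowns the block gave 163 and 182 calls, DESeq2 12 and 37, and every gene with a count 3 at early gastrula. For the Sox3 stage difference, DESeq2 gave 36, the block 5 and the block within stage 11. The block changed no other call of a member in the knockdown comparisons.

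Across the stages, controls of the same number correlated at 0.694 in the Sox3 series but at -0.275 in the Foxi2 series, so the numbers did not pair in both. Such a block called 1 member (*dlx3*, 7.33, adjusted p = 0.0115, with 5.86% of genes called higher), as did the Sox3 controls alone (6.15), and turned *dlx6* to -0.091. *dlx6* was -0.18 in the Sox3 controls alone, and *dlx2* was 0.26 in the Foxi2 controls alone. Genes called over the stage change numbered 1524 by DESeq2, 875 without TMM, 503 with every gene with a count, 2110 with the block and 1988 in the Sox3 controls, against 0.

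With single libraries left out and no block, no member was called in any knockdown comparison, and for Sox3 at early gastrula 0 to 2 of all genes were called. The *dlx5* and *dlx3* values for Sox3 at early gastrula stayed negative, from -2.55 to -1.57 and from -3.52 to -1.80 (the last without control 1). In Foxi2 gastrulae they ran from -2.33 to 0.78 (*dlx5*), -3.35 to 0.71 (*dlx3*) and -3.36 to 2.69 (*dlx6*), with *dlx5* positive without control 1 (0.78) or morphant 2 (0.047). At late blastula they ran from -1.99 to -0.20 (*dlx5*), -0.41 to 0.089 (*dlx2*) and -0.67 to 0.25 (*dlx6*) in the Foxi2 series and from -1.22 to -0.50 (*dlx5*, without morphant 1 and without morphant 2), -0.30 to 0.28 (*dlx2*) and -1.86 to 0.31 (*dlx6*) in the Sox3 series, and *dlx6* ran from -0.20 to 1.11 in Sox3 gastrulae. The stage change called 0 to 1 members and 0 to 2283 genes. Without Foxi2 control 3 of late blastula, *dlx3* was called at 7.57 (adjusted p = 0.00458), since the late blastula controls left were all at the floor. *dlx2* ran from -0.34 to 0.0085 and *dlx6* from -0.89 to 0.53. The difference between knockdowns ran from -1.20 to 0.64 (*dlx5*, late blastula), -0.19 to 2.92 (*dlx5*, early gastrula) and -0.45 to 3.61 (*dlx3*), and the Foxi2 stage difference of *dlx5* from -1.21 to 1.88. Of the 5 genes most like a member, those shared after a mean of at least 10 CPM was required were 2 for *dlx3* and 1 for *dlx6* over libraries and 0 for *dlx2* and *dlx6* over pairs. With a prior count of 0.5 they were 2 and 0 for *dlx3*.

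Groups of 2 libraries leave few degrees of freedom, and leaving out a pair there leaves no spread to test against. *dlx3* and *dlx6* rest on few counts, so their intervals are wide.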
